A study of Homo sapiens with 4 samples.

Results

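Nuclear factor I (NFI) proteins are transcription factors encoded by NFIA, NFIB, NFIC and NFIX. They bind a palindromic DNA site as dimers through a conserved amino-terminal domain, and their carboxy-terminal part, which activates or represses transcription, is varied by alternative splicing. In mice Nfib is needed for lung maturation, and NFIB is known for its amplification in small cell lung cancer. The skipped exons described here are those that lie on the same strand inside 1 of the 4 genes in GENCODE 29 (hg38). They numbered 12 in 13 events, of 37641 exons in 44447 events listed in either line, and every NFI event was listed in both lines. The family was chosen by inclusion levels, Bayes factors and reads of these same files, among them the NFIC change given below, so its values are a description and carry no test.

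MDA-LM2 is a highly lung-metastatic derivative of MDA-MB-231, an established human breast cancer cell line of mesenchymal type, and the parental MDA-MB-231 line was its control. Total RNA was taken from 2 samples of each line, grown in serum-containing medium without treatment. The deposited files hold 1 table per line with no replicate named, taken here as pooled over the line's samples, so no value has a replicate error. An inclusion level is the share of transcripts of an event that hold the skipped exon, as a fraction estimated by MISO, and the interval beside it is the deposited one. Reads of an event fit the inclusion isoform alone, the exclusion isoform alone, both, or neither, and the first 2 kinds are called informative. Event reads are the inclusion, exclusion and both classes together, and they came to 17366605 over all LM2 events and 21716937 over all parental events. Reads per 1000000 of these event reads of a library are given as RPM. Of the mesenchymal markers 4 of 6 had an event, and their event reads summed to 2482 RPM in LM2 and 2856 RPM in parental cells, with ZEB1 at 33.4 and 56.4 and AXL at 166.0 and 180.3. The epithelial marker CDH1 had 0.633 RPM in LM2 and 0.599 in parental cells, whereas KRT8 had 356 and 271. Of the luminal hormone receptor markers 2 of 4 had an event and summed to 11.7 RPM in LM2 and 4.65 RPM in parental cells, of which GATA3 made up 0.749 RPM in LM2 and 2.62 RPM in parental cells and FOXA1 the rest. No leukocyte or endothelial marker had an event to measure.

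NFIA (ENSG00000162599.15) lies on chromosome 1, 60865259 to 61462793, plus strand, and NFIB (ENSG00000147862.16) on chromosome 9, 14081843 to 14398983, minus strand. NFIC (ENSG00000141905.18) and NFIX (ENSG00000008441.16) both lie on the plus strand of chromosome 19, at 3314403 to 3469217 and 12995608 to 13098796. The same positions of different NFI genes carried skipped exons. In NFIC a 72-nt exon (chromosome 19, 3425106 to 3425177) and in NFIA a 66-nt exon (chromosome 1, 61277520 to 61277585) both follow the 532-nt exon that encodes most of the DNA-binding domain, and both precede a 75-nt exon. The 532-nt exons of NFIC and NFIA were identical at 74.3% of alignment columns and the 75-nt exons at 71.1%, while the skipped exons between them were identical at 54.1%. Both skipped exons are coding and keep the reading frame. They are shown because NFIC's is the exon with the largest deposited change in the family, and capitals mark the 40 bases identical in the pairwise alignment (GENCODE 29 transcript sequence, hg38, plus strand, 5′ to 3′).
NFIC 72-nt exon: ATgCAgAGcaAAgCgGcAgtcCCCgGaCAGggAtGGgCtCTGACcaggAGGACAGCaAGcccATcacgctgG
NFIA 66-nt exon: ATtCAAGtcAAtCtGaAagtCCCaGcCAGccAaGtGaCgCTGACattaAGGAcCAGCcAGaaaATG

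Further skipped exons lie towards the 3′ ends, where splicing sets the carboxy terminus. A 123-nt exon of NFIX (chromosome 19, 13078613 to 13078735) and a 129-nt exon of NFIA (chromosome 1, 61383237 to 61383365) hold the same place and keep the frame. A 154-nt exon of NFIC (chromosome 19, 3453763 to 3453916) and a 148-nt exon of NFIX (13087989 to 13088136) both stand before the penultimate exon. The penultimate exon is itself skipped in NFIC (86 nt, 3456550 to 3456635), NFIA (92 nt, chromosome 1, 61426465 to 61426556) and NFIB (89 nt, chromosome 9, 14102422 to 14102510, minus strand). In NFIC the 154-nt and 86-nt exons together make 240 nt, as do the 148-nt and 92-nt exons of NFIX, a multiple of 3, while none of these exons has such a length alone. In the annotation, NFIC transcripts with both exons and the transcript with neither end at the same stop codon in the last exon. Transcripts with the 86-nt exon alone end inside it, and NFIX transcripts without the 148-nt exon end inside the 92-nt exon. In NFIA, skipping the 92-nt exon between its usual neighbours moves the annotated stop codon 59 nt within the last exon, and in NFIB skipping the 89-nt exon moves it by 112 nt. A short NFIA transcript with the 68-nt exon in place of the 92-nt exon keeps the stop of the transcripts with the 92-nt exon, and an NFIB transcript with the 89-nt and 5-nt exons ends in the 5-nt exon. The sequences show these ends, with the stop codon in capitals (hg38, plus strand). The first gives the NFIC penultimate exon (3456550 to 3456600), the next the NFIX penultimate exon (13090299 to 13090370). The last joins the end of the 185-nt exon of NFIC (3452655 to 3452666) to the start of its last exon (3462752 to 3462769).
NFIC 86-nt exon to its stop: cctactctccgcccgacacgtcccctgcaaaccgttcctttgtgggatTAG
NFIX 92-nt exon to its stop: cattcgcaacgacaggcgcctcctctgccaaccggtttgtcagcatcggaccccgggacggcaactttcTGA
NFIC join without both exons: caacctggaccgtcctggtatctgggaTAG

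**Figure D1:**
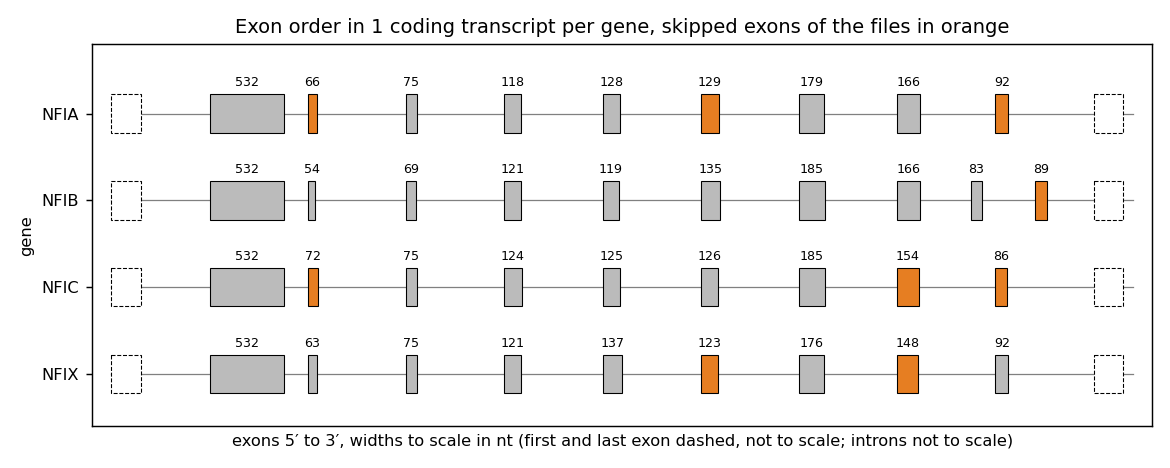
Order of exons in 1 annotated coding transcript of each NFI gene, with exon lengths in nt above the boxes, box widths to scale except for the dashed first and last exons, and introns not to scale. Orange boxes are skipped exons of the files. The 54-nt and 68-nt exons of NFIA and the 5-nt exon of NFIB are not part of these transcripts. NFIC and NFIA have an orange box after the 532-nt exon, and NFIA, NFIB and NFIC have one in penultimate place.

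NFIC was the family member whose exon use differed most between the lines. Its 72-nt exon had a deposited inclusion level of 0.84 (interval 0.63 to 0.97) in LM2 cells, against 0.36 (0.24 to 0.50) in parental cells, a difference of 0.48. The intervals did not overlap, and the Bayes factor, the evidence for a difference over that for none, was 5011 as listed in the authors' deposited table. A read minimum of 10 informative reads per library, with each kind seen at least once over both, was met by 9 NFI exons. With limits of 10 for the Bayes factor and 0.2 for the size of the difference, 1 of the 9 was called, this exon. Over all 14109 exons that met the read minimum 1.25% were called, 0.921% as higher and 0.326% as lower in LM2. The choice of the family used this result, so nothing is read from its count.

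Few reads that skip the NFIC exon lay behind that difference. LM2 had 33 inclusion reads and 0 exclusion reads, and the parental line had 26 and 2. The 0 of 33 in LM2 allows a share of exclusion reads of up to 9.09% by 3 counts, and the parental share was 7.14%, so skipping was not distinguishable between the libraries at this depth. A level from these reads alone halved the inclusion reads, for the 2 junctions of an included exon. It was 1.0 in LM2 and 0.867 in parental cells, a difference of 0.13. Halving does not account for exon length or for reads inside the exon, so this level is not on the scale of the deposited one. The reads that fit both isoforms went the other way from the inclusion reads, at 258 in LM2 and 536 in parental cells. Inclusion reads per 100 such reads were therefore 12.8 in LM2 and 4.85 in parental cells, a ratio of 2.64 (exact 95% interval 1.53 to 4.59, counting error only). Scaled to the library total, inclusion reads of the exon gave 1.90 RPM in LM2 and 1.20 in parental cells (ratio 1.59, 0.921 to 2.76). In both libraries 87.0% of reads listed for the event fit neither isoform, and the introns beside the exon are 42862 and 8340 nt long.

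The NFIA exon at the same place had deposited intervals that overlapped between the lines. The 66-nt exon stood at 0.50 (0.31 to 0.81) in LM2 cells, against 0.46 (0.28 to 0.67) in parental cells. Its Bayes factor was 0.42, from the authors' deposited table. LM2 gave 18 inclusion reads and 0 exclusion reads, the parental line 16 and 2. Its exclusion reads were thus as few as those of the NFIC exon, and its inclusion reads were fewer. Reads that fit both isoforms numbered 319 in LM2 and 273 in parental cells, and reads that fit neither 15661 in LM2 and 12837 in parental cells, both higher in LM2, where the NFIC event had fewer of each in LM2 (for neither, 1950 in LM2 and 3782 in parental cells). Inclusion reads per 100 of these were 5.64 in LM2 and 5.86 in parental cells (ratio 0.963, 0.463 to 2.02). The event spans the annotated gene AC096947.1 on the same strand and NFIA-AS1 on the other, and the reads that fit neither isoform made up 97.9% of its LM2 reads and 97.8% of its parental reads.

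The penultimate exon of NFIC moved in the other direction and just missed the limits. Its level was 0.44 (0.34 to 0.54) in LM2 cells, against 0.63 (0.55 to 0.70) in parental cells, intervals that do not overlap. The difference of -0.19 lay just under 0.2 in size, and the Bayes factor just under 10, at 9.8 in the authors' deposited table. With the limits lowered to 5 and 0.1 together it joined the 72-nt exon, giving 2 of 9, where 2.81% of all tested exons passed. This exon had the most informative reads of the family, 51 for inclusion and 42 for exclusion from LM2, against 131 and 46 from the parental line. Inclusion made up 54.8% of informative reads in LM2 (exact Clopper-Pearson 95% interval 44.2 to 65.2) and 74.0% in parental cells (66.9 to 80.3). The read-based level was 0.378 in LM2 and 0.587 in parental cells, and the log2 ratio of the read odds of inclusion, LM2 over parental, was -1.22 (exact conditional 95% interval -2.04 to -0.41). It was the 1 NFI exon of 9 whose read odds had an interval that excluded a ratio of 1, which 6.21% of all tested exons had, 3.04% with lower odds in LM2.

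At that exon the ratio of inclusion reads lay below 1 with its interval, and the ratio of exclusion reads had an interval that held 1. Inclusion reads were at 2.94 RPM in LM2 and 6.03 RPM in parental cells (ratio 0.487, 0.345 to 0.678). Exclusion reads were at 2.42 RPM in LM2 and 2.12 RPM in parental cells (ratio 1.14, 0.733 to 1.77). Per 100 reads that fit both isoforms, inclusion reads were 1.72 in LM2 and 2.05 in parental cells, and the interval of this ratio held 1 (0.836, 0.592 to 1.16). Reads in the exon can also come from transcripts that hold the 154-nt exon before it. That exon was at 0.10 (0.06 to 0.15) in LM2 cells, against 0.08 (0.05 to 0.11) in parental cells, from 16 reads for inclusion and 24 for exclusion (parental 21 and 29). The exclusion reads of the 154-nt event fit the join of the 185-nt exon to the 86-nt exon, and those of the 86-nt event its join to the last exon. Of these 2 kinds of join, the one to the 86-nt exon made up 36.4% in LM2 (24 of 66 reads, exact Clopper-Pearson 95% interval 24.9 to 49.1) and 38.7% in parental cells (29 of 75, 27.6 to 50.6). The intervals of this share overlap over most of their length, unlike the deposited intervals of the 86-nt exon's level.

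**Figure D2:**
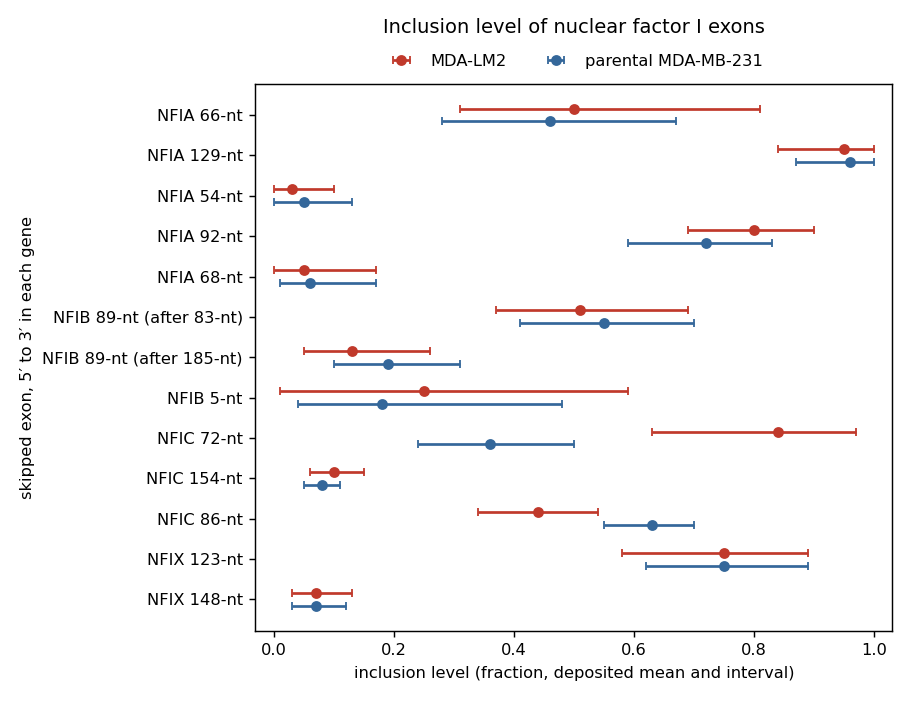
Deposited inclusion level of each NFI skipped exon in its event, as a fraction from 0 to 1, for LM2 (red) and parental MDA-MB-231 (blue). Points are posterior means and bars the deposited intervals. The bars of the 2 lines are apart at the 72-nt exon of NFIC (0.84 in LM2, 0.36 in parental cells) and the 86-nt exon of NFIC (0.44 and 0.63), and overlap at the other exons.

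The other penultimate exons overlapped between the lines. The 92-nt exon of NFIA was at 0.80 (0.69 to 0.90) in LM2 cells, against 0.72 (0.59 to 0.83) in parental cells, from 52 reads for inclusion and 8 for exclusion (parental 42 and 9). The 89-nt exon of NFIB after the 83-nt exon was at 0.51 (0.37 to 0.69) in LM2 cells, against 0.55 (0.41 to 0.70) in parental cells, from 24 reads for inclusion and 7 for exclusion (parental 33 and 6). Measured after the 185-nt exon instead, the same NFIB exon was at 0.13 (0.05 to 0.26) in LM2 cells, against 0.19 (0.10 to 0.31) in parental cells, from 5 and 9 such reads (parental 10 and 7). The level thus differed more between the 2 events of the exon than between the lines. The deposited intervals of these 2 NFIB events do not overlap within either line. In each of the 3 events the difference between lines was at most 0.08 in size.

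The 123-nt and 148-nt exons of NFIX and the 129-nt exon of NFIA each had deposited levels within 0.01 of each other between the lines. The 123-nt exon of NFIX was at 0.75 in each (LM2 0.58 to 0.89, parental 0.62 to 0.89), and 49 LM2 reads held the exon and 4 skipped it, against 83 and 5 parental reads. Its counterpart in NFIA, the 129-nt exon, was almost always included, at 0.95 in LM2 and 0.96 in parental cells, and no exclusion read was found beside 57 inclusion reads in LM2 and 75 in parental cells. These counts of 0 allow exclusion shares of up to 5.26% in LM2 and 4.0% in parental cells. The 148-nt exon of NFIX was mostly skipped, at 0.07 in each line, and 7 LM2 reads held it and 20 skipped it, against 9 and 15 parental reads. The gene AC007787.2 overlaps that event on the same strand. The exon before the penultimate one was thus low in both lines in NFIX, as in NFIC, whose 154-nt exon is given above.

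Each of 3 further exons is held by 1 annotated transcript of its gene, and only 1 inclusion read was seen over all of them. A 54-nt exon of NFIA (61385871 to 61385924), annotated in 1 of 14 NFIA transcripts, was at 0.03 (0.00 to 0.10) in LM2 cells, against 0.05 (0.00 to 0.13) in parental cells. None of its LM2 reads held the exon and 13 skipped it, against 1 and 16 parental reads. A 68-nt exon of NFIA (61439451 to 61439518) had no inclusion read in either line, beside 8 LM2 reads and 9 parental reads that skipped it, and its deposited level was 0.05 in LM2 and 0.06 in parental cells. These counts of 0 allow inclusion shares of up to 37.5% in LM2 and 33.3% in parental cells. A 5-nt exon of NFIB (14093460 to 14093464), which holds the stop codon of 1 transcript, had no inclusion read, beside 3 LM2 reads and 5 parental reads that skipped it. Its deposited levels, 0.25 (0.01 to 0.59) in LM2 cells, against 0.18 (0.04 to 0.48) in parental cells, therefore rest on no inclusion read, and with so few reads the count of 0 sets no limit in LM2 and one of 60.0% in parental cells. These 2 exons and the 129-nt exon of NFIA were the 3 that did not meet the read minimum.

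**Figure D3:**
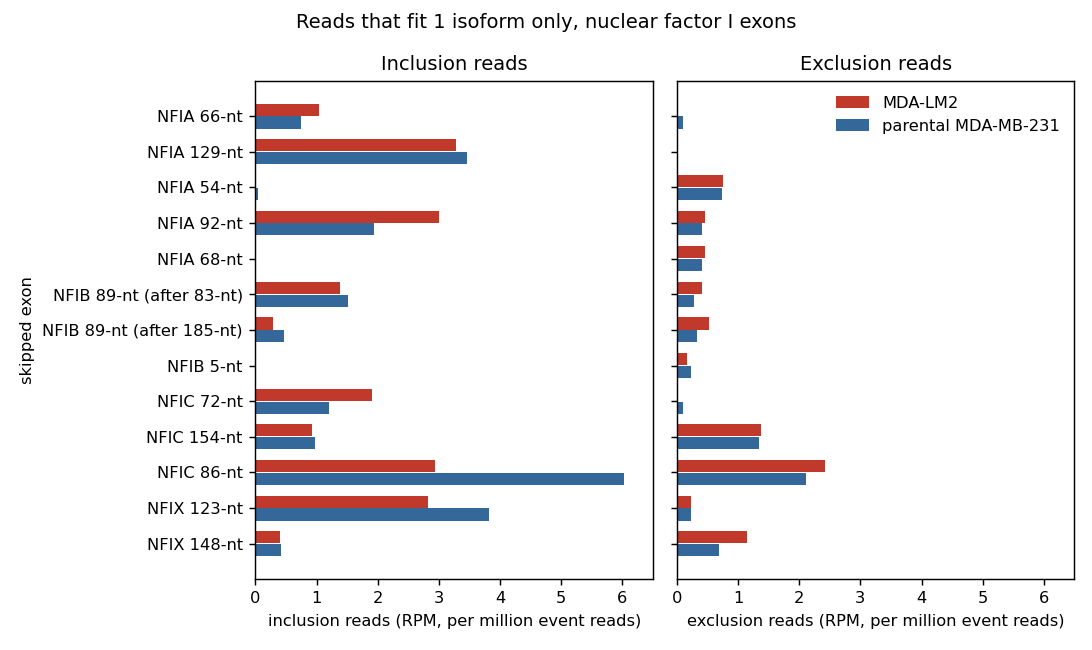
Reads that fit only the inclusion isoform (left) or only the exclusion isoform (right) of each NFI event, in RPM of the library's event reads, for LM2 (red) and parental MDA-MB-231 (blue). Bars are pooled counts with no replicate error. The 86-nt exon of NFIC had inclusion reads at 2.94 RPM in LM2 and 6.03 RPM in parental cells, and exclusion reads at 2.42 and 2.12 RPM.

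Across the 9 exons with enough reads the median difference was 0, as it was over all 14109 tested exons. The median size of the difference was 0.04 for the NFI exons and 0.02 over all tested exons. A difference under 0.1 in size was found in 7 of the 9 NFI exons and in 83.4% of all tested exons. The plot of deposited against read-based differences sets each NFI exon over the density of all exons. For the 72-nt exon of NFIC the deposited difference of 0.48 stood above the read-based 0.13, a measure on another scale. The exons of other genes closest to it in the pair of levels, by distance over the 2 libraries and among those with 50 or more informative reads per library, lay in TRAPPC1 (0.84 in LM2 and 0.37 in parental cells), NIN (0.83 and 0.30) and CEP57 (0.80 and 0.45). In TRAPPC1, 156 LM2 reads held the exon and 4 skipped it, against 105 and 1 parental reads. In NIN these were 4508 and 10, against 2286 and 62, and in CEP57 53 and 0, against 54 and 2. Skipping reads were thus few beside inclusion reads in each of these exons, of which that of NIN is 2139 nt long. In TRAPPC1 they were more in LM2, although its deposited level was higher there, and in NIN and CEP57 they were fewer in LM2. A likeness over 2 values is a description only.

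**Figure D4:**
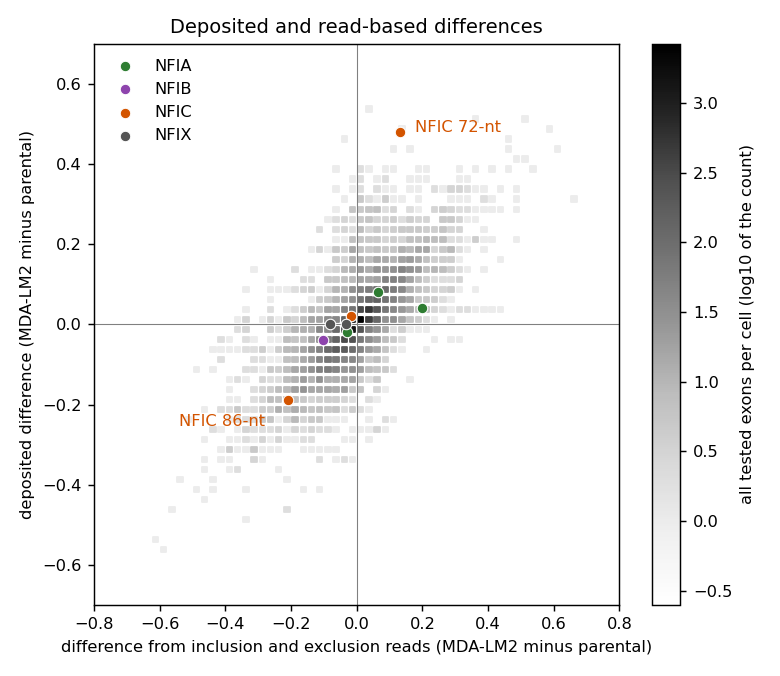
Deposited difference in inclusion level (vertical axis) against the difference computed from inclusion and exclusion reads (horizontal axis), both LM2 minus parental, for the 9 NFI exons with enough reads (coloured by gene) over the density of all 14109 tested exons (grey, log10 of the count per cell). The 86-nt exon of NFIC lay at -0.19 and -0.21, and the 72-nt exon of NFIC at 0.48 and 0.13. The read-based measure does not account for exon length, so it is not on the scale of the deposited one.

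Event reads give a view of transcript level in which the 4 genes did not move together. NFIC was lower in LM2, with 176.4 RPM at its best covered event in LM2 and 301.8 in parental cells (ratio 0.585, exact 95% interval 0.560 to 0.610, counting error only). NFIX was also lower, at 7.49 RPM in LM2 and 10.8 in parental cells (0.695, 0.556 to 0.864), and so was NFIB, at 139.3 and 168.8 (0.826, 0.784 to 0.869). NFIA was higher, at 114.2 RPM in LM2 and 97.0 in parental cells (1.18, 1.11 to 1.25). From such pooled RNA, fewer expressing cells and less RNA per cell cannot be told apart. Over 8825 genes 36.7% had an interval below 1 and 23.2% an interval above 1, so such an interval was common. No NFI gene reached a 2-fold ratio, which, with an interval that excludes 1, 8.92% of genes did as lower and 3.35% as higher in LM2. The median log2 ratio over genes was -0.12. Relative to it NFIA stood at 0.36, NFIB at -0.16, NFIX at -0.40 and NFIC at -0.65 on the log2 scale, and 14.4% of genes had a lower ratio than NFIC.

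Every event of a gene had its ratio on the same side of 1. The 5 NFIA events lay between 1.13 and 1.45, the 3 NFIB events between 0.814 and 0.826, the 3 NFIC events between 0.585 and 0.722, and the 2 NFIX events at 0.695 and 0.798. Events of a gene that share exons share reads and are not independent. The NFIB events share the long last exon, as do the 92-nt and 68-nt events of NFIA. The 72-nt event of NFIC and the 66-nt event of NFIA share no exon with the other events of their gene. The interval of the 148-nt event of NFIX (0.628 to 1.01) and those of the 54-nt and 129-nt events of NFIA held 1. With inclusion and exclusion reads alone, the best covered NFIA event is that of the 129-nt exon and the direction of NFIA turns, to a ratio of 0.891.

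**Figure D5:**
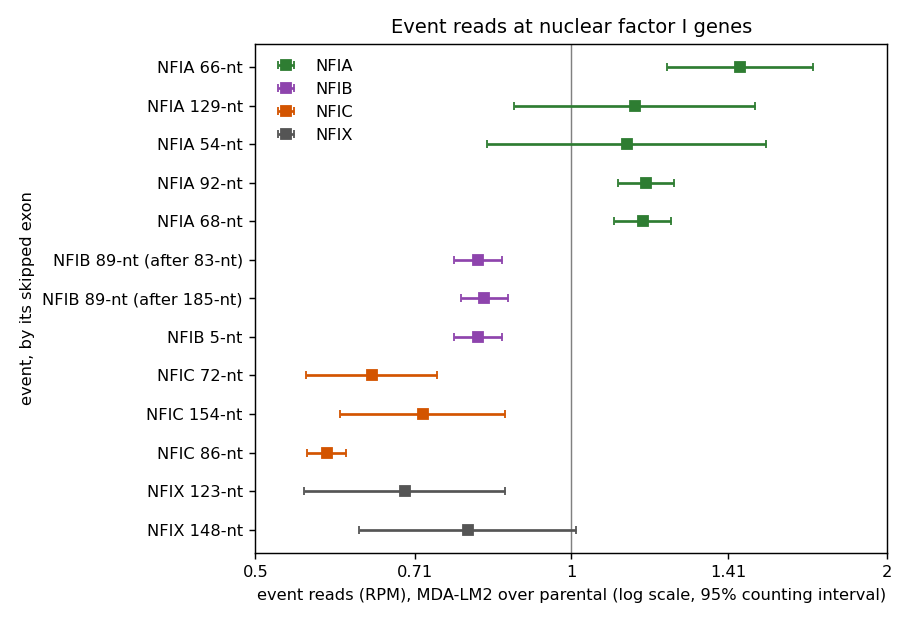
Ratio of event reads in RPM, LM2 over parental MDA-MB-231, for each NFI event (log axis). Squares are ratios of pooled counts, and bars are exact 95% intervals that cover counting error only. All 5 NFIA events lay right of 1 (1.13 to 1.45), and the events of NFIB, NFIC and NFIX lay left of it.

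Per length of the exons in each gene's best covered event, the order of the genes was the same in both lines. In LM2 the levels, in RPM of event reads per kilobase, were 26.2 for NFIC (exact Poisson 95% interval 25.3 to 27.1), 20.6 for NFIB (19.8 to 21.5), 17.2 for NFIX (14.3 to 20.4) and 14.8 for NFIA (14.1 to 15.4). In parental cells they were 44.8 for NFIC (43.7 to 45.9), 25.0 for NFIB (24.2 to 25.8), 24.7 for NFIX (21.6 to 28.1) and 12.5 for NFIA (12.0 to 13.1). NFIX overlapped with NFIB in both lines and with NFIA in LM2, so their neighbouring ranks are not separated. The NFIX event holds no last exon, unlike those of the other genes. The order also depended on the event chosen. At the events after the 532-nt exon, NFIA stood at 28.8 and NFIC at 24.7 RPM per kilobase in LM2. In parental cells these were 19.9 for NFIA and 38.2 for NFIC.

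Genes tied to NFI biology were read beside the family. SMAD proteins, which transmit TGF-beta and BMP signals through a DNA-binding domain related in structure to that of NFI, had 7 tested exons, of which 1 was higher (0.921% over all tested exons), none was lower and the median difference was 0.02. The higher one was an 86-nt exon of SMAD2, at 0.59 (0.42 to 0.79) in LM2 cells, against 0.32 (0.24 to 0.42) in parental cells, where 29 LM2 reads held the exon and 3 skipped it, against 44 and 9 parental reads. By event reads 1 of 7 SMAD genes was at least 2-fold higher and 3 were at least 2-fold lower, beside 3.35% and 8.92% of all genes. SMAD6, an inhibitory SMAD, was highest at a ratio of 2.28 (1.57 to 3.35) and SMAD9 lowest at 0.289 (0.140 to 0.548). The median log2 ratio was -0.81 for SMAD genes and -0.12 over all genes.

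Among partners and cofactors of NFI proteins 14 exons were tested, in 5 of the 9 genes listed. None was called, where 1.25% of all tested exons were, and differences ran from -0.15 to 0.19 with a median of 0.005. The chromatin remodelling ATPase SMARCA4 (0.99 in each line) and the acetyltransferases EP300 (0.99 in LM2 and 0.98 in parental cells) and CREBBP (0.90 and 0.92) had their best covered exons near full inclusion. The pioneer factor FOXA1 had the highest event read ratio of these genes, 5.43 (3.89 to 7.72), from 191 reads in LM2 and 44 in parental cells. It is also a luminal marker, and GATA3, the other such marker with an event, was lower in LM2. Genes linked to NFI proteins as targets in other work had 8 tested exons and no call, beside the same 1.25%. These exons lay in only 2 of the 11 genes listed. The best covered exon of the matrix protein FN1 was at 0.86 in LM2 and 0.88 in parental cells. That of the histone methyltransferase EZH2 was at 0.54 and 0.53. By event reads 2 of 5 genes of this list were at least 2-fold lower, beside 8.92% of all genes. GFAP, an astrocyte filament protein, was lowest at 0.147 (0.0379 to 0.413) from 4 reads in LM2 and 34 in parental cells, and CDH1 highest at 1.06 (0.429 to 2.56) from 11 and 13.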

How the data were processed

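Per the submitters' processing notes, reads were aligned with STAR 2.7 to hg38. Per the file headers, skipped-exon events were quantified with MISO. The sources used here give neither its version, settings and event annotation, nor the handling of replicates. The authors deposited inclusion levels as a fraction from 0 to 1, with an interval of unstated level, and read counts per class as text. The authors' deposited table of the comparison holds the difference as a score (LM2 minus parental, equal to that of the levels in every event) and the Bayes factor as a ratio of the evidence for a difference to that for none. Listed events had at least 20 reads in all classes.

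Exons were represented by the event with most informative reads and compared where both libraries had 10 informative reads or more and each kind was seen over both. A call needed a Bayes factor of 10 and a difference of 0.2. The median of tested exons was 74 informative reads in LM2 and 92 in parental cells. Ratios of reads have exact conditional 95% intervals. For the log2 odds ratio 0.5 was added to each count for its value, and its interval used the counts as they were. Intervals and limits for counts of 0 cover counting error only, since no values per replicate are given. The labels name no molecular identifiers, so repeated copies of a molecule could not be told apart. Gene ratios used the event with most event reads, at least 20 over both lines, in exons inside 1 gene. The intervals were tested on simulated reads drawn as independent counts, which the intervals themselves assume. That checks the computation only, not their coverage in these libraries. Alignments of exons were global (Biopython 1.88). Intervals came from scipy 1.17.1. All NFI exons are described, named genes of other lists are the called exons or else up to 3 best covered, and the highest and lowest gene ratio. A gene that this rule selects is not reported here. The genes and lists were chosen with earlier results of these data known. The sources used here do not say whether counting used strand.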

Additional observations from a re-analysis of the deposited data

How the results depend on the processing

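No paired analysis was possible because the files hold 1 table per line, with no values per replicate, and leaving out a replicate could not be run for the same reason. The count of 1 NFI exon called was the same under the 7 other settings chosen at the start, and 2 were called with a Bayes factor of 5 and a difference of 0.1 together, a choice made after seeing the data, the added one being the 86-nt exon of NFIC. Over all exons 176 were called, 292 at a difference of 0.1, 290 with no read minimum and 397 under the added choice. From inclusion and exclusion reads the difference was 0.13 for the 72-nt exon of NFIC (deposited 0.48) and -0.082 for the 148-nt exon of NFIX (deposited 0). These read-based differences are not on the scale of the deposited ones. Of the values recomputed under other settings, 34 stayed within their limits or error, 14 moved and 1 changed direction, and all of the last 2 kinds are given here. From informative reads alone the event read ratio of NFIA was 0.891, below 1, on 57 LM2 and 75 parental reads of the 129-nt event. With all 4 read classes it was 1.58, where the best covered event is that of the 66-nt exon. Relative to the median gene it was 1.28. For NFIB these 3 ratios were 0.932, 0.900 and 0.898, and for NFIC 0.616, 0.618 and 0.636. The cause of the other moves was not tested. With 0 to 46 exclusion reads per event, a small shift in skipping was not detectable at this depth.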

Other observations

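Calls at exons with hardly any skipping reads also occurred outside NFIC. Of the 176 exons called over the series, 37 had at most 2 exclusion reads over both libraries, which is 21.0%, and 31 of these were higher in LM2, as were 130 of all 176. Among all tested exons 22.6% had so few.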
